A study of Homo sapiens with 9 samples.

Results

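The gene described here is CDR1 (ENSG00000288642), 1 of the 19969 gene symbols in the count table, followed across all 9 libraries. It was chosen with its values across the guides and the input known, so its levels and differences are given as a description with no test. The libraries came from HEK293T, a human embryonic kidney cell line, and were made from RNA depleted of ribosomal RNA. Of these, 6 carry the label FHY1-M3, the name of a construct, together with a guide RNA (sgRNA): ACTB sgRNA, con sgRNA or non-target sgRNA, with 2 replicates each. The remaining 3 are labelled input, with no construct or guide given. No label states the light received by a culture, whether an FHY1-M3 library holds total or immunoprecipitated RNA, or whether replicates are separate cultures, so the spread between replicates may be technical. In the header of the count table the con libraries are called con_ACTB_sgRNA, so it is not known whether they also had the ACTB guide. Construct, guide, RNA fraction and sequencing depth cannot be told apart between the FHY1-M3 libraries and the input.

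CDR1 is named after the cerebellar degeneration-related antigen that it was described to encode. The locus is better known for the RNA made from the opposite strand, CDR1-AS (also ciRS-7), a circular RNA that is abundant in brain and also present in HEK293 cells. A circular RNA has no free end and no poly(A) tail. CDR1-AS holds many sites for the microRNA miR-7, which it binds through Argonaute proteins, and a highly complementary site for miR-671, through which it can be cut. The long noncoding RNA gene LINC00632 is the host transcript from which the circle is spliced.

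In RefSeq (GRCh38.p14), CDR1-AS is a synonym of LINC00632, which spans chromosome X from 140709759 to 140791357 on the plus strand. LINC00632 has no row among the counts, and no row is named for the circular RNA. The kit was directional, but the strand setting of the counting is not given in the sources used here. Reads of CDR1 and of the RNA on the opposite strand therefore cannot be told apart in the CDR1 row, and every value below is a value of that row.

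The mature sequences of the microRNAs tied to this locus, from RefSeq, are shown because the locus is known for pairing with them. Capitals mark the seed, bases 2 to 8 counted from the 5′ end.
hsa-miR-7-5p: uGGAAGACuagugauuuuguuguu
hsa-miR-671-5p: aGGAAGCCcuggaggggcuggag
The seeds differ by A7C, with positions counted from 1 at the 5′ end of miR-7. No other mature microRNA name in the RefSeq table had either seed. miR-7 is encoded at 3 places: MIR7-1 lies inside HNRNPK on chromosome 9, MIR7-2 inside AEN on chromosome 15 and MIR7-3 inside MIR7-3HG on chromosome 19. MIR671 lies inside CHPF2 on chromosome 7.

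RefSeq gives LINC00632 windows at 3 transcript starts, each from 250 bases before the start to 50 after it. The window of the third start (chrX:140782931-140783230, plus strand, GRCh38.p14, start at 140783181) is printed because it holds matches to the miR-7 seed. Capitals mark GTCTTCC, the reverse complement of that seed.
LINC00632 start 3: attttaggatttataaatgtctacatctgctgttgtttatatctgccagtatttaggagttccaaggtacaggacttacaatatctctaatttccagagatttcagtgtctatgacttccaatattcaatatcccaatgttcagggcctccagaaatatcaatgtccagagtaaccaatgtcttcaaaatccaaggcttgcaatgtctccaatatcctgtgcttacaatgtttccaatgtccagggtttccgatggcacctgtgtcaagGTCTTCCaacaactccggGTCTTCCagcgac
Both matches lie after the start, beginning 19 and 37 bases from it, on the strand of the transcript. Each is followed by A, which makes the 8-base form GTCTTCCA. Of 35116 RefSeq windows of 300 bases, 2.44% held GTCTTCC at least once on the transcript strand, 4.84% held it on either strand, and 11 windows (0.0313%) held it 2 or more times on the transcript strand. The 8-base form GTCTTCCA, which contains GTCTTCC, occurred in 0.487% of windows on the transcript strand and in 0.98% on either strand. It occurred 2 or more times on the transcript strand in 1 window, the one printed. The windows of the first and second start held 0 copies of either form on both strands. GGCTTCC, the match to the miR-671-5p seed, was in 0 of the 3 windows on both strands, against 4.95% of all windows on the transcript strand and 9.72% on either. GGACT, a common form of the sequence at which the m6A writer acts, occurred once in the third window, 179 bases before the start, and in 25.3% of all windows on the transcript strand and 44.2% on either. Windows of 1 gene can overlap, and a match describes letters only.

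CDR1 was high in the input and low in every FHY1-M3 library. The inputs held 228, 478 and 206 CDR1 counts in replicates 1, 2 and 3, although their totals were only 350413 to 643954 counts. The FHY1-M3 libraries, with totals of 2900021 to 3802681 counts, held 88 and 74 counts for the ACTB guide, 70 and 60 for con and 107 and 32 for the non-target guide. More CDR1 counts thus came from the 3 shallow inputs (912) than from the 6 deeper FHY1-M3 libraries (431). In CPM, each count divided by its scaled library total and set to a common base, the inputs stood at 659, 777 and 538. The ACTB guide pair stood at 24.3 and 21.4 CPM, the con pair at 18.2 and 15.7 CPM, and the non-target pair at 28.7 and 10.9 CPM. All 3 inputs lay above all 6 FHY1-M3 libraries, and the lowest input was 18.7 times the highest FHY1-M3 library.

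**Figure D1:**
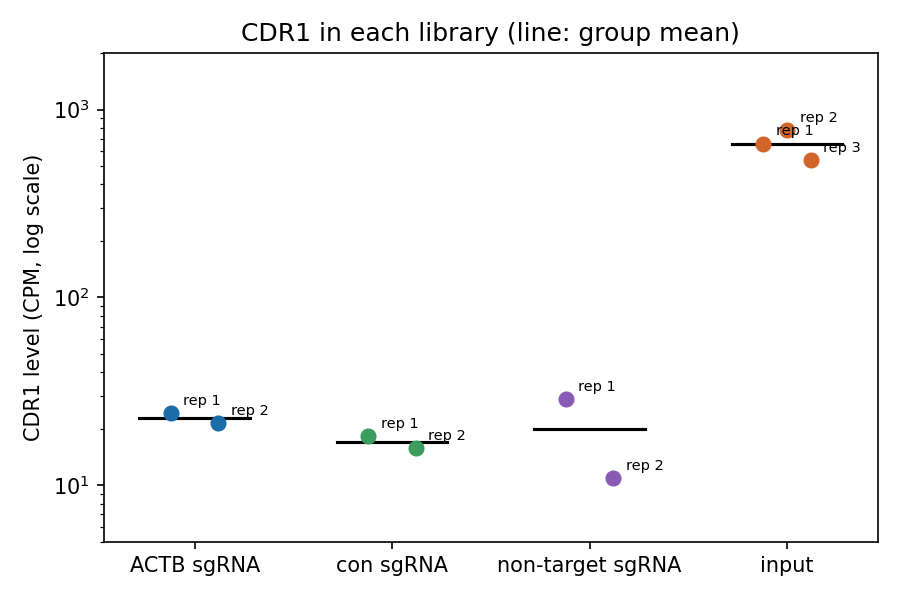
CDR1 level in CPM (log axis) in each library, by guide or input; points are libraries, labelled by replicate, and lines are group means. The 3 inputs lie between 538 and 777 CPM and the 6 sgRNA libraries between 10.9 and 28.7 CPM, with the widest gap between replicates in the non-target pair.

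The mean was 658 ± 119 CPM in the input (SD, n = 3) and 19.9 ± 6.33 CPM in the FHY1-M3 libraries (SD, n = 6), a ratio of 33.1. The fitted log2 difference, FHY1-M3 minus input, was -5.05 (SE 0.18). Had the inputs stood at the FHY1-M3 level, their depth would have given 26.7 CDR1 counts in place of 912. Had the FHY1-M3 libraries stood at the input level, they would have held 14074 in place of 431. As a share of all counts, CDR1 took 0.0651% of input replicate 1 (95% Wilson interval 0.0542% to 0.0782%, on counts halved to read pairs). It took 0.0742% of replicate 2 (0.0654% to 0.0843%) and 0.0526% of replicate 3 (0.0434% to 0.0638%). In the FHY1-M3 libraries the share ran from 0.00110% (0.000679% to 0.00179%) in non-target replicate 2 to 0.00288% (0.00223% to 0.00379%) in non-target replicate 1. These intervals cover counting error only. The intervals of input replicates 2 and 3 do not overlap, while that of replicate 1 overlaps both. Those of the non-target replicates do not overlap. These are the most distant pairs of a gene chosen with its values known, so spread beyond counting error was not tested. No input interval reaches that of an FHY1-M3 library. These are shares of a library, so less CDR1 RNA per cell and fewer cells that hold it cannot be told apart.

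Every input lay above every FHY1-M3 library for 8.51% of the 13411 genes tested, and the edgeR quasi-likelihood test called 8.6% of them lower in the FHY1-M3 libraries. CDR1 was chosen on this contrast, so nothing is read from its place among them. Ordered by log2 difference, it was number 54 from the most negative of the 13411 genes, whose median was 0.04. Of the 53 genes before it, 46 had a mean below 100 CPM in the input. Among the 2362 genes with at least 100 CPM there, CDR1 was number 8. The genes before it, named after their values were seen, include the mitochondrial mRNAs MT-ATP8 (-5.79, SE 0.17) and MT-ND2 (-5.06, SE 0.08), which encode subunits of ATP synthase and of complex I. The histone H4 gene HIST1H4D stood at -5.46 (SE 0.28). TMEM107 (-7.24, SE 0.24), which encodes a protein of the ciliary transition zone, holds or adjoins the small nucleolar RNA gene SNORD118 in the RefSeq table. WDR74 (-5.42, SE 0.15), which encodes a ribosome assembly factor, lies with the small nuclear RNA gene RNU2-2 in the same way. KCNE1B (-6.31, SE 0.38) and SMIM11B (-5.92, SE 0.34) have near-identical copies, so that their counts are uncertain.

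**Figure D2:**
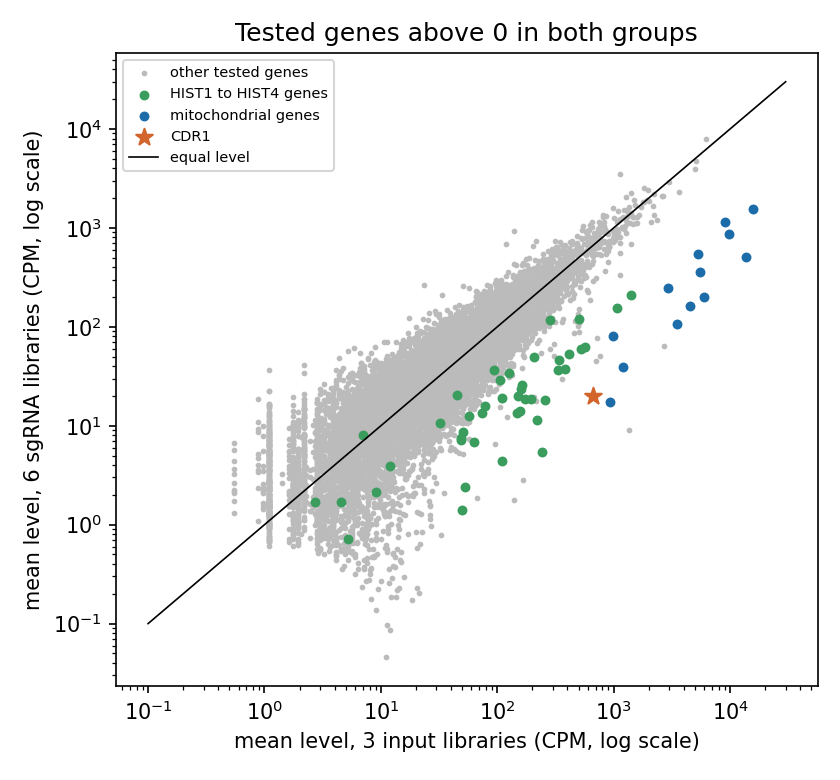
Mean level of each tested gene above 0 in both groups, in the 3 inputs (x axis) and the 6 sgRNA libraries (y axis), in CPM on log axes; points are genes and the line marks equal levels. CDR1, at 658 CPM in the input and 19.9 CPM in the sgRNA libraries, lies far below the line, near mitochondrial and histone genes.

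Whole-library composition moved with this contrast. Mitochondrial mRNAs took 7.52% to 7.80% of input counts and 0.563% to 0.639% of FHY1-M3 counts. Genes named HIST1 to HIST4 took 0.797% to 0.938% against 0.132% to 0.149%. With both gene groups removed before scaling, the log2 difference of CDR1 was -5.06. Groups with shares this small could move a difference of this size only slightly. The value therefore does not test the part of composition. The part of RNA quality or RNA fraction in the difference was not tested. All 8 genes chosen as markers of HEK293 cells had counts, and their summed level was 1083 to 1226 CPM in the FHY1-M3 libraries and 1032 to 1276 CPM in the input. Of 14 markers of blood, endothelial, liver, muscle, glial and mature neuronal cells, 11 had counts and 5 had a mean above 1 CPM. PTPRC, CD3E and CDH5 were at 0 in every library. The sum of the 14 was 20.2 to 37.4 CPM in the FHY1-M3 libraries and 5.78 to 37.4 CPM in the input.

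Neither the ACTB nor the con guide pair separated from the non-target pair in CDR1 level. In descending order, the group means were 22.9 ± 2.06 CPM for the ACTB guide, 19.8 ± 12.6 CPM for the non-target guide and 17.0 ± 1.74 CPM for con (SD, n = 2 each). The non-target pair held both the highest and the lowest of the 6 values, with replicate 1 at 2.63 times replicate 2, and so enclosed the other 4 libraries. Both ACTB sgRNA libraries lay above both con sgRNA libraries, at a ratio of means of 1.35. The fitted log2 difference was 0.43 (SE 0.51) for ACTB minus con sgRNA, 0.20 (SE 0.51) for ACTB minus non-target sgRNA and -0.23 (SE 0.51) for con minus non-target sgRNA. Each of these is smaller than its standard error, and the last 2 share the non-target libraries. Without non-target replicate 1 they became 1.06 for ACTB and 0.63 for con minus non-target sgRNA, and without non-target replicate 2 they became -0.33 and -0.76. A single library therefore set the sign against the non-target sgRNA. Across the inputs the highest value was 1.44 times the lowest.

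The genes with the profile most like that of CDR1 were found by the root mean square difference between centred log2(CPM + 0.5) values over the 9 libraries, among 11634 other genes with a mean of at least 5 CPM. The 6 closest were 2 histone genes and 4 mitochondrial mRNAs: HIST1H3F (0.38), MT-ATP6 (0.38), HIST1H4D (0.39), MT-ND4 (0.41), MT-ND4L (0.44) and MT-ND1 (0.45), where the median over all genes was 2.55. HIST1H3F and HIST1H4D encode replication-dependent histones. Over replicates 1, 2 and 3, HIST1H3F held 35, 64 and 48 counts in the input. Its counts were 16 and 20 in the ACTB pair, 20 and 12 in the con pair, and 24 and 4 in the non-target pair. HIST1H4D held 86, 142 and 96 counts in the input, 18 and 22 in the ACTB pair, 32 and 12 in the con pair, and 26 and 8 in the non-target pair. Both histone genes, like CDR1, were lower in non-target replicate 2 than in replicate 1 also after scaling. They were picked for likeness to CDR1 over these same libraries, so this shared low value follows in part from the choice. It also rests on 4 and 8 histone counts in replicate 2, and nothing is read from it. On the centred log2 scale, CDR1 stood at -1.10 in replicate 1 and -2.46 in replicate 2. HIST1H3F stood at -0.91 and -2.81 and HIST1H4D at -1.39 and -2.60. The mitochondrial mRNAs did not show this gap: MT-ATP6, for a subunit of ATP synthase, stood at -1.76 and -1.86, and MT-ND4, for a subunit of complex I, was slightly higher in replicate 2 (-1.60 and -1.48). Histone genes share sequence, so single values are uncertain. Because the libraries form 2 separate clusters, likeness mostly reflects the gap between input and FHY1-M3 libraries, and no correlation is given. Ranked by Pearson's r in place of the root mean square difference, only HIST1H4D stayed among the 6 closest.

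**Figure D3:**
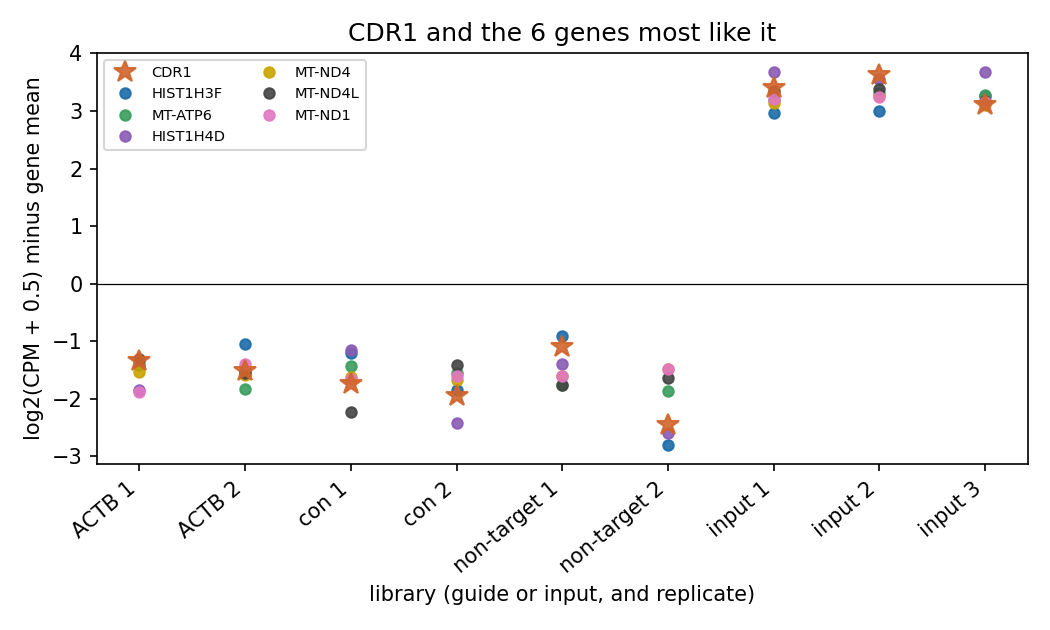
Centred log2(CPM + 0.5) of CDR1 (star) and the 6 genes with the closest profile in each of the 9 libraries; 0 is each gene's mean over libraries. All 7 genes lie above 0 in the 3 inputs and below 0 in the 6 sgRNA libraries, and CDR1 is lowest in non-target replicate 2.

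Most genes around the locus had few or no counts. RefSeq places 48 further genes within 2 Mb of LINC00632, 16 of them protein-coding, and 14 with a row among the counts are described here. Of these, 6 had no count in any library: the clotting factor gene F9, CXorf66, the transcription factor gene SOX3 and the testis genes SPANXA1, SPANXA2 and SPANXD. A level of 3 counts over each group equals 0.140 CPM over the FHY1-M3 libraries and 2.23 CPM over the inputs. Because both mates of a pair appear to be counted, a count of 0 allows levels above these. LDOC1, 382 kb beyond LINC00632, stood at 22.6 ± 12.8 CPM in the input (SD, n = 3) and 30.0 ± 9.43 CPM in the FHY1-M3 libraries (SD, n = 6; log2 0.36, SE 0.45, edgeR quasi-likelihood adjusted p = 0.626). FGF13 held 10 counts over the inputs and 17 over the FHY1-M3 libraries (log2 -3.09, SE 1.49, adjusted p = 0.146). The other 6 with counts held at most 21 each over all libraries: MAGEC2 (21), MAGEC1 (8), MCF2 (6), MAGEC3 (4), SPANXC (2) and SPANXB1 (1). Members of the SPANX and MAGEC families share sequence, so these low counts are uncertain. Of these 14 neighbours, LDOC1 and FGF13 had enough counts to be tested, and neither passed. CDR2L, which is not one of these neighbours, has a product related to another antigen of cerebellar degeneration. It rose from 36.6 ± 16.7 CPM in the input to 84.7 ± 14.2 CPM in the FHY1-M3 libraries (log2 1.15, SE 0.31, edgeR quasi-likelihood adjusted p = 0.007).

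Genes that process microRNAs or act with them were then read from the same fit, in which 20% of the 13411 genes were called, 11.4% higher and 8.6% lower. Among the 5282 genes with a mean of at least 50 CPM, which are the better measured ones, 34% were called, 21.5% higher and 12.4% lower. Adjusted p-values in the following lists are Benjamini-Hochberg values of the edgeR quasi-likelihood test over all genes. Of 18 measured genes of microRNA processing, Argonaute function and target-directed decay, 1 rose, 4 fell and 13 did not pass (27.8% called, median log2 -0.14). AGO1, an Argonaute, fell from 220 ± 5.8 to 119 ± 15.1 CPM (-0.89, SE 0.17, adjusted p = 0.000174). AGO2, the Argonaute that can cut its target, stood at 296 ± 31.2 against 236 ± 27.6 CPM (-0.33, SE 0.14, adjusted p = 0.107), and passed with median-ratio factors (0.0409) and in DESeq2 (0.041). TNRC6B (-0.72, SE 0.15), a partner of Argonaute in silencing, and XPO5 (-0.57, SE 0.16, named after its value was seen), which exports microRNA precursors, fell. ZSWIM8, an adaptor of the ubiquitin ligase that degrades Argonaute when a target directs decay of its microRNA, rose by 1.24 (SE 0.33, adjusted p = 0.00631). TUT4, which adds uridines to RNA ends, fell by 0.76 on the log2 scale (SE 0.19, adjusted p = 0.00349), a call that ended when input replicate 2 was left out (0.0843). DICER1, which cuts precursors into mature microRNAs, differed by 0.33 (SE 0.17, adjusted p = 0.196) and passed without input replicate 1 (0.0372).

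Of the host genes of the microRNAs, HNRNPK and CHPF2 were read, and neither passed. HNRNPK, which holds MIR7-1, stood at 678 ± 32.3 CPM in the input and 779 ± 36.3 CPM in the FHY1-M3 libraries (log2 0.20, SE 0.09, adjusted p = 0.127), and passed with library-size scaling (0.0417). CHPF2, which holds MIR671, stood at 43.2 ± 23.8 and 69.6 ± 18.3 CPM (log2 0.60, SE 0.33, adjusted p = 0.202), and passed without input replicate 2 (1.17, 0.0446). MIR7-3HG was not analysed here, and AEN, which holds MIR7-2, was not on the list of hosts. The counts say nothing of the mature microRNAs.

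Of 27 genes often described as miR-7 targets, 3 rose, 5 fell and 19 did not pass (29.6% called, median log2 0.25). EGR1, an immediate early transcription factor gene, fell from 85.7 ± 51.3 to 23.4 ± 9.83 CPM (-1.93, SE 0.37, adjusted p = 0.000221). SKP2 (-1.25, SE 0.26), a subunit of a ubiquitin ligase of the cell cycle, and SP1 (-0.93, SE 0.14), a transcription factor gene, also fell. IRS2, an adaptor of the insulin receptor, fell by 1.40 on the log2 scale (SE 0.44, adjusted p = 0.021), but did not pass without ACTB sgRNA replicate 1 (0.0616), con sgRNA replicate 2 (0.0571) or input replicate 1 (0.204). Named after their values were seen, the kinase gene MTOR (0.88, SE 0.17), PARP1 (0.63, SE 0.10), which encodes a DNA damage sensor, and YY1 (0.56, SE 0.15) rose. YY1 did not pass without input replicate 3 (0.0511) and with a replicate block (0.0638). IGF1R, also named afterwards, fell by 0.44 on the log2 scale (SE 0.16, adjusted p = 0.0383). It did not pass with library-size scaling (0.0678) and without ACTB sgRNA replicate 2 (0.107), con sgRNA replicate 2 (0.127), non-target replicate 1 (0.0756) or 2 (0.0685) and input replicate 2 (-0.23, 0.392). EGFR, a receptor often used as the model target, differed by 0.27 (SE 0.39, adjusted p = 0.684).

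Of 11 tested genes described in circular RNA formation, 3 rose, 1 fell and 7 did not pass (36.4% called, median log2 0.01). HNRNPM, which encodes an RNA-binding regulator of splicing, rose by 0.96 (SE 0.16, adjusted p = 3.79e-05). DHX9 (0.54, SE 0.12), a helicase that unwinds paired repeats, and SF3B1 (0.57, SE 0.11), a splicing factor, also rose. NOVA2, a neuronal splicing factor, fell by 1.55 on the log2 scale (SE 0.55, adjusted p = 0.0409) but did not pass without ACTB sgRNA replicate 1 (0.105), con sgRNA replicate 1 (0.0897), non-target replicate 1 (0.106) or input replicate 1 (-0.86, 0.379). QKI, which promotes circle formation in many hosts, differed by -0.15 (SE 0.17, adjusted p = 0.567), and ADAR, the RNA editing enzyme that loosens paired repeats, by 0.01 (SE 0.12, adjusted p = 0.978).

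Of 14 genes of circular RNA export and decay, 8 rose, 1 fell and 5 did not pass (64.3% called, median log2 0.93). DDX39A, a helicase tied to export of circular RNAs, rose from 84.8 ± 13.9 to 214 ± 16.9 CPM (1.30, SE 0.19, adjusted p = 2.25e-06). Its close relative DDX39B, also tied to export of circular RNAs and named after its value was seen, fell from 248 ± 65 to 149 ± 26.1 CPM (-0.77, SE 0.17, adjusted p = 0.00107). YTHDF2, the m6A reader that can bring bound RNA to RNase P and MRP, rose from 135 ± 47.3 to 320 ± 18 CPM (1.21, SE 0.17, adjusted p = 1.73e-06). Among subunits of RNase P and MRP, POP1 (1.68, SE 0.46) and RPP30 (1.61, SE 0.41) rose, as did RPP25 (1.89, SE 0.53, adjusted p = 0.01), which did not pass without input replicate 2 (0.0884).

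Host genes of other abundant circular RNAs were read the same way. Of 20 such genes, 2 rose, 4 fell and 14 did not pass (30% called, median log2 -0.21), and their rows count linear and circular RNA together. The largest fall was that of SLC8A1, a sodium-calcium exchanger gene, from 58 ± 26.9 to 22.5 ± 6.75 CPM (-1.37, SE 0.39, adjusted p = 0.00978), which was lost without input replicate 3 (0.154) and with a replicate block (0.153). UBXN7 (-1.07, SE 0.19) and ZKSCAN1 (-0.74, SE 0.18) fell, and CAMSAP1 (1.03, SE 0.20) rose. SMARCA5 (0.45, SE 0.15, adjusted p = 0.0245) and RTN4 (-0.61, SE 0.19, adjusted p = 0.0167) were named after their values were seen. SMARCA5 did not pass with median-ratio factors (0.0664), in DESeq2 (0.0569) or without ACTB sgRNA replicate 2 (0.0666), con sgRNA replicate 1 (0.0537) or 2 (0.06), non-target replicate 1 (0.0877) or input replicate 2 (0.0729). RTN4 did not pass without ACTB sgRNA replicate 2 (0.051), con sgRNA replicate 2 (0.0786), or input replicate 2 (0.0633) or 3 (0.0543). HIPK3 differed by 0.15 (SE 0.28, adjusted p = 0.766) and ZNF609 by -0.05 (SE 0.21, adjusted p = 0.904), both hosts of well-studied circles.

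**Figure D4:**
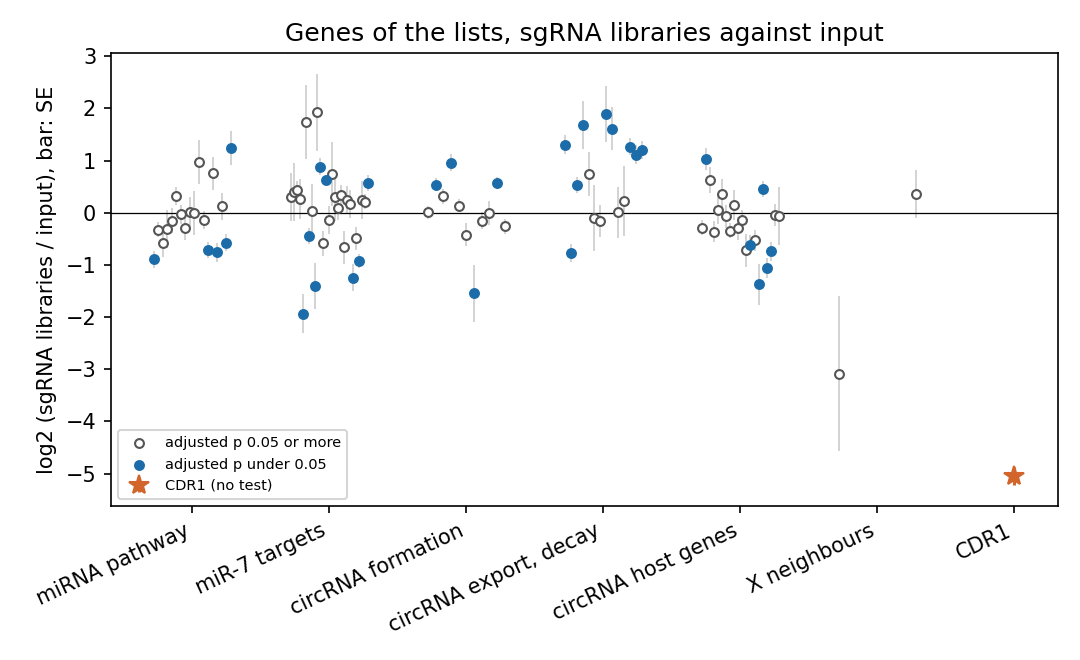
Log2 difference between the sgRNA libraries and the input (y axis) for each tested gene of 6 lists and for CDR1; points are genes, bars are standard errors, and filled points passed an adjusted p of 0.05. CDR1 lies at -5.05, while the genes of the microRNA and circular RNA lists lie between -1.93 and 1.92.

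Between guides, 0 members of these 5 lists passed in any of the 3 comparisons of the edgeR quasi-likelihood test, and 0 passed in DESeq2. Of all 12808 genes the edgeR test called 0.25% for ACTB against non-target (0.0547% higher, 0.195% lower), 0.172% for con against non-target (0.00781% higher, 0.164% lower) and 0.0312% for ACTB against con sgRNA (0.0156% higher, 0.0156% lower). Counted before adjustment, at p under 0.05, the ACTB against non-target comparison held 0 genes of the microRNA pathway, 2 miR-7 targets, 2 genes of circle formation, 1 of export and decay and 2 circle hosts. These are 7 of 90 list genes (7.78%), where 7.82% of all genes were below that p. For con against non-target sgRNA there were 2 miR-7 targets and 2 genes of circle formation, 4.44% of the list genes against 5.25% of all genes. For ACTB against con sgRNA there was 1 miR-7 target, 1.11% against 3.86%. None of these shares exceeds that of all genes. The 3 comparisons share libraries, so these counts are not independent.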

How the data were processed

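The deposited table holds raw counts (whole numbers, not normalized) for each gene symbol and library, as its values show. Tools listed in the submitters' processing notes are cutadapt (4.3), STAR (2.7.10b) and deepTools, with hg38 as the build. For their roles, the counting tool and its strand setting, no statement was found in the labels or headers. Most low values were even (88.5% to 95.0% of values from 1 to 20 per library), so both mates of a pair appear to be counted and intervals were computed on halved counts.

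Levels are TMM-scaled CPM from all 9 libraries. Tests were quasi-likelihood F tests of edgeR 4.0.16, run in R 4.3.3 (two-sided, filterByExpr by group, Benjamini-Hochberg threshold 0.05). The contrast with input used 1 fit of all 9 libraries, with the mean of the 3 guide groups minus input, and guide contrasts used 1 fit of 6. A standard error is the absolute log2 difference divided by the square root of F. The test was first tried on simulated counts with 1 fixed spread between replicates and no counting of both mates. That trial does not measure the error rate in these data. CDR1 got no p. The gene and the lists were chosen with earlier results of these data known, and a few list genes and neighbours are not reported here and are left out of the list counts. Named were, per list, up to 4 called genes with the largest difference and up to 2 core genes. The microRNA hosts HNRNPK and CHPF2, every neighbour with counts and the 6 closest profiles were also named. Others are marked in the text. CDR1 has no row in the RefSeq table, so LINC00632 anchored the neighbours. Between replicates, chi-square per degree of freedom was 3.33 to 5.12 in the guide pairs and 1.81 to 2.26 among the inputs. Counting both mates raises this value by itself, so spread beyond sampling noise is not claimed from it for the inputs. No replicates were merged. Alternatives were other scalings, no low-count filter, DESeq2 1.42.0, another choice of fitted libraries, a replicate block, halved counts, removal of mitochondrial and histone genes, and leaving out each library.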

Additional observations from a re-analysis of the deposited data

Results flagged for a closer look

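Within the 6 FHY1-M3 libraries, 38 genes including CDR1 were checked for a single library far from the other 5, and 6 had one by Dixon's 95% criterion, which sets the gap to the nearest library against the whole range. For well-measured values chance alone gives about 1 in 20. CDR1 was not among them. EGFR was highest in ACTB sgRNA replicate 2 (48.59 CPM) and SLC8A1 and CHPF2 in non-target replicate 2 (35.54 and 105.6 CPM). The remaining 3 rest on very few counts, where 2 or more counts in 1 library can be enough and the chance rate does not apply: MAGEC1 (1.574 CPM) and MCF2 (0.5248 CPM) in con sgRNA replicate 2 and SPANXC (0.5373 CPM) in non-target replicate 1.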

How the results depend on the processing

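The log2 difference of CDR1 between FHY1-M3 libraries and input kept its sign under all 17 alternatives run, between -5.34 and -4.88, both ends from leaving out a non-target replicate. Its group means moved by less than 1 SD under the 3 other scalings. Against the non-target sgRNA, leaving out 1 library gave -0.33 to 1.06 for ACTB and -0.76 to 0.63 for con sgRNA, and the range for ACTB against con sgRNA was 0.33 to 0.54. The numbers of genes called, left-out libraries included, were 2043 to 2429 against input (2677 with all), 18 to 35 for ACTB against non-target (32), 10 to 27 for con against non-target (22) and 0 to 3 for ACTB against con sgRNA (4). DESeq2 called 74 for ACTB and 38 for con against non-target sgRNA. With all 9 libraries in the fit, 16 were called for ACTB against non-target and 0 for ACTB against con sgRNA, where 7 were called with no low-count filter and 2 without mitochondrial and histone genes. Replicate numbers showed no pairing (correlations of deviations between guides of 0.003, -0.005 and -0.01). With a replicate block CDR1 stood at -5.21 against input, 0.30 and -0.13 for ACTB and con against non-target and 0.43 for ACTB against con sgRNA, and 2309, 31, 22 and 4 genes were called.

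Besides CDR1 against the non-target sgRNA, signs changed for 3 named genes, none of which had passed against input. ADAR went to -0.0708 with median-ratio factors, -0.0729 in DESeq2, -0.0583 with the replicate block, -0.0199 on halved counts and -0.00146 without mitochondrial and histone genes, and ran from -0.0585 (without input replicate 3) to 0.0796 over left-out libraries, with -0.0451 without non-target replicate 1. ZNF609 went to 0.00403 with library-size scaling and ran from -0.13 to 0.0201 over left-out libraries, positive without non-target replicate 1 or input replicate 2. HIPK3 ran from -0.0202 (without input replicate 1) to 0.52. The causes were not tested. The number of called genes in each of the 5 lists stayed within 1.5 times its value under all alternatives run. Input depth limits low genes most, since 3 counts there equal 2.23 CPM.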
